A study of Mus musculus with 51 samples.

Results

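The 8 genes Mog, Opalin, Mobp, Mag, Mbp, Cnp, Ermn and Ugt8a encode proteins of oligodendrocytes and of the myelin they make. They were chosen by name and were found among the 22609 gene symbols of every library. Polyadenylated RNA was sequenced from lumbar spinal cord, from dorsal root ganglia (DRG) of lumbar levels and from punch biopsies of the hind paw of male mice of the C57 strain, aged 8 to 12 weeks. Mice had received vehicle or paclitaxel (PTX), which is given against cancer, binds microtubules and can injure peripheral nerves. PTX was injected into the peritoneum 2 times at 2 mg/kg, 1 day apart, and no genetic alteration was named. Each of the 17 groups had 3 libraries. In one set of cord libraries, called set A here, PTX and vehicle were both present at day 1 and at day 7. The other cord set, set B, held PTX libraries of days 1, 22 and 35 and no vehicle. The sets differed in source name. The word ipsi stood in the titles of the set A PTX cords only, and the set A vehicle cords were titled control. DRG and paw had PTX libraries of days 2, 7, 22 and 35 and vehicle libraries of day 2. After day 2, drug and day therefore cannot be told apart in the ganglia and paws, nor at any day in cord set B. The titles gave day 1 for the first cord libraries and were followed, although the series description names day 2 for all tissues. Separate animals are named by no label for the 3 libraries of a group, so p-values measure only spread between libraries. In the main tests this spread was shared over all groups fitted together, so a cord p-value rests on all 21 cord libraries.

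Oligodendrocytes wrap axons of the brain and spinal cord in myelin, whereas Schwann cells do so in peripheral nerves, nerve roots and ganglia. Several myelin proteins are made by both cell types and others by oligodendrocytes alone. Myelin basic protein (Mbp) holds the cytoplasmic faces of the membrane together, Mobp is a small basic protein of compact central myelin, and Mog is an immunoglobulin-like glycoprotein on the outer surface of the central sheath. Mag, a sialic acid-binding adhesion protein, lies on the membrane next to the axon, and Cnp, a cyclic nucleotide phosphodiesterase, lies in the cytoplasmic channels of the sheath. Opalin is a transmembrane glycoprotein of oligodendrocytes, Ermn (ermin) binds actin in them, and Ugt8a is the ceramide galactosyltransferase that makes galactosylceramide, a major lipid of central and peripheral myelin. In RNA from whole tissue, fewer cells of a type and less RNA per cell cannot be told apart.

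The promoters of Opalin, Mog and Mobp are shown because these genes had few or no reads outside the cord and because Opalin, unlike the other pair, was called within set B. The stretches come from RefSeq (GRCm38.p6) and run 5′ to 3′ on the strand of the gene, ending just before the first annotated base of its transcripts. They lie at chr19:41077114-41077363 on the minus strand (Opalin), chr17:37023399-37023648 on the minus strand (Mog) and chr9:120149492-120149706 on the plus strand (Mobp). Capitals mark the letters ACAAAG or their reverse complement CTTTGT, the core that SOX family factors such as SOX10 bind.
Opalin: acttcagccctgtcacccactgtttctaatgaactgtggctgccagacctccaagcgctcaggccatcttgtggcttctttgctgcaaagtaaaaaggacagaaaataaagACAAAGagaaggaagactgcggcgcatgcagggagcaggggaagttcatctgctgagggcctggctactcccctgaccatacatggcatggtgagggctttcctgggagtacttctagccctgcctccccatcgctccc
Mog: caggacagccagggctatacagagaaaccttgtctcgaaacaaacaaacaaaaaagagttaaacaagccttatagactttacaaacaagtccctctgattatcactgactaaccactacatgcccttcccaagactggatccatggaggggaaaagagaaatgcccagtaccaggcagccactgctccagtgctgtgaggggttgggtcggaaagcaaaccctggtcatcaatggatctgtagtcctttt
Mobp: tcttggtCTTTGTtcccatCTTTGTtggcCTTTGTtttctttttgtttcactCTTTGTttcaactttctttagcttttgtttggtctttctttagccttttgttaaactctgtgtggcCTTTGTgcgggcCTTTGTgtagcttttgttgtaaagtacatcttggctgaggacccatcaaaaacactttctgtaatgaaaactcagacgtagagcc
The core occurred 6 times upstream of Mobp, 1 time upstream of Opalin and 0 times upstream of Mog. Of all 32851 windows of 250 bases upstream of a RefSeq start, 16.5% held it on either strand, so a single match is common. How many windows held 6 matches was not counted. The letters CTGGCAC, a core of the oligodendrocyte factor MYRF, were in none of these 3 windows and in 4.19% of all windows. Among genes not shown, the window of Ermn, which also had few reads outside the cord, held neither core, nor did that of Ugt8a. The window of Cnp and some of those of Mag held 1 match of each core. No window of Mbp was among those examined. Such matches describe the letters in the window and show no binding.

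Gene reads ranged over 17661067 to 30247230 per cord library, 18645710 to 27257659 per DRG library and 13346971 to 21697763 per paw library. The labels were checked with marker genes, and 5 of the 21 cord libraries stood apart. Scn10a, a sodium channel gene of ganglion neurons, was at 754, 168 and 303 CPM (reads of a gene scaled to the same total of gene reads in every library) in set A PTX day 1 replicates 1 to 3. It was at 245 and 222 CPM in set A vehicle day 1 replicates 2 and 3, and at 0.109 to 1.53 CPM in the other 16 cord libraries. The summed level of 9 ganglion neuron markers was 1122 to 3293 CPM in these 5 libraries and 71.2 to 177.6 CPM in the other 16. Peripheral myelin transcripts varied more widely still, and the sum of 13 Schwann cell genes ran over 817 to 24713 CPM across the cord libraries. It exceeded 15000 CPM in 6 of them, namely all 3 set A PTX day 1 libraries, set A vehicle day 1 replicates 1 and 3, and set B PTX day 1 replicate 2. Results that rest on the 5 libraries are given with and without them where this was possible. All 3 PTX libraries of day 1 in set A are among them, so no comparison with that group could be made without them.

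All 8 genes were present in every cord library, and 4 of them were nearly confined to cord among these tissues. Mog, Opalin, Mobp and Ermn together reached at most 2.78 CPM in any DRG library and 2.10 CPM in any paw library, whereas the cord libraries held 409 to 1849 CPM. Over the 15 DRG libraries, Opalin had 3 reads in all, Mog 28, Ermn 42 and Mobp 370. Mobp was thus the only one of these 4 with a read in every DRG library. The other 4 genes, Mag, Mbp, Cnp and Ugt8a, were well expressed in DRG and detected in every paw library.

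**Figure D1:**
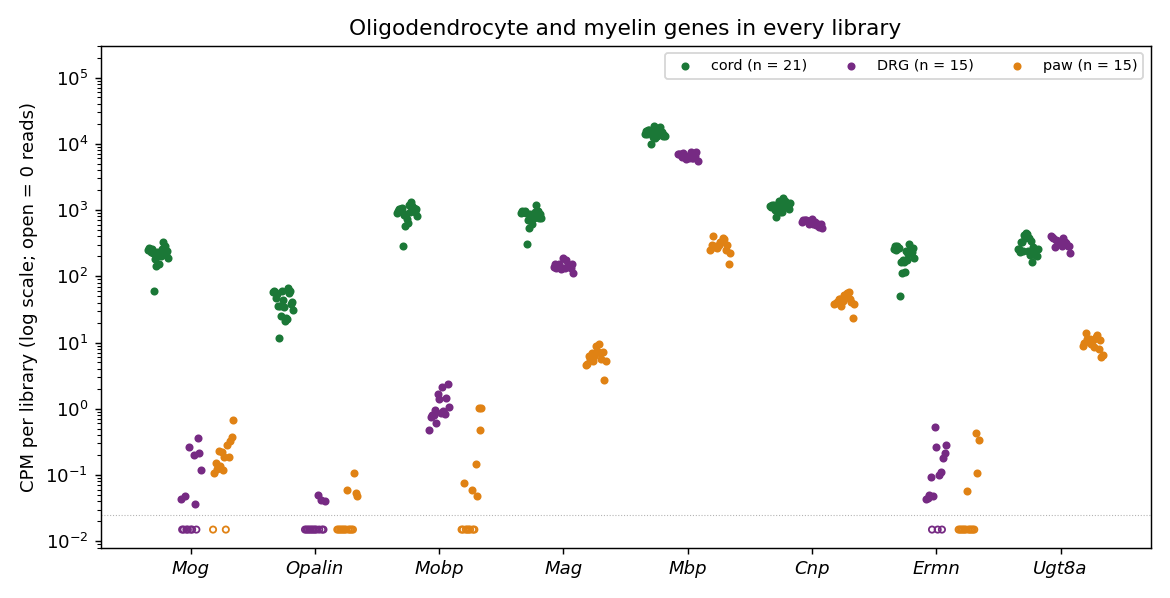
CPM (log axis) of each gene in 21 spinal cord, 15 DRG and 15 paw libraries. Filled points are single libraries, and open points below the dotted line are libraries with 0 reads, so the wide gap between cord and the other tissues for Mog, Opalin, Mobp and Ermn and the overlap of cord and DRG for Ugt8a can be read directly.

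In vehicle libraries, 7 of the 8 genes were higher in cord (6 libraries) than in DRG (3 libraries) at an edgeR adjusted p under 0.05, where 62.1% of all 16391 genes tested were called, 31.3% higher and 30.7% lower. Opalin had 7261 reads in vehicle cord and 0 reads in vehicle DRG. Against a floor of 3 reads over the group it was 974-fold higher in cord, and the lower end of its 95% counting interval was 792. Mog had 34552 reads in vehicle cord and 1 read in vehicle DRG, a ratio of 13900 after depth scaling with a 95% counting interval of 2495 to 549030. For Ermn the ratio was 4497 (1539 to 21808), and for Mobp, with 51 reads in vehicle DRG, it was 1118 (851 to 1502). These intervals cover counting error only. The 4 genes shared with Schwann cells differed far less between the tissues.

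Mag averaged 834.5 ± 141 CPM in vehicle cord (SD, n = 6) and 140.5 ± 11.5 CPM in vehicle DRG (n = 3), a log2 difference of 2.48 ± 0.13 (SE; edgeR quasi-likelihood test with Benjamini-Hochberg adjustment, adjusted p = 1.5e-08). Mbp averaged 15358 ± 1984 CPM in vehicle cord and 6633 ± 596 CPM in vehicle DRG, a log2 difference of 1.13 ± 0.12 (edgeR adjusted p = 8.6e-06). For Cnp the averages were 1106 ± 161 CPM in vehicle cord and 664 ± 50.2 CPM in vehicle DRG, and the log2 difference was 0.65 ± 0.13 (edgeR adjusted p = 0.00103). Ugt8a was the exception among the 8 genes. It averaged 327 ± 79.5 CPM in vehicle cord and 324 ± 39.7 CPM in vehicle DRG, with a log2 difference of -0.07 ± 0.18 (edgeR adjusted p = 0.753). Without the 2 vehicle cord libraries that carried ganglion transcripts, the log2 differences were 2.57 for Mag, 1.23 for Mbp, 0.77 for Cnp and 0.05 for Ugt8a. The only vehicle day 1 cord library kept, replicate 1, still held a Schwann sum of 22024 CPM. That sum was 1738 to 5272 CPM in vehicle day 7 cords and 22941 to 26508 CPM in vehicle DRG. Peripheral myelin transcripts thus stayed in this comparison, and their part in it was not tested. All 13 Schwann cell genes tested were lower in vehicle cord than in vehicle DRG, and 24 of 35 other mature oligodendrocyte genes were higher and 1 was lower.

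Against vehicle paw, all 8 genes were higher in vehicle cord, where 84.1% of genes were called, 43.7% higher and 40.4% lower. Opalin, Mobp and Ermn had 0 reads in the 3 vehicle paw libraries. Against the floor of 3 reads they were 841-fold, 16425-fold and 3885-fold higher in vehicle cord. The lower ends of their 95% counting intervals were 684, 13358 and 3160. Mog had 9 reads in vehicle paw, a ratio of 1334 (703 to 2918). The shared genes stood closer, with ratios of 140.5 for Mag, 55.6 for Mbp, 29.1 for Ugt8a and 26.5 for Cnp. The vehicle cord libraries were of days 1 and 7 and those of the other tissues of day 2.

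The genes differed widely in abundance within cord. Levels were divided by the length of the exons of each gene (GRCm38 annotation, a later build than the mm9 used for counting) so that genes could be compared. Mbp led with 1891 ± 244 CPM per kb in vehicle cord (SD, n = 6), followed by Cnp with 469 ± 68.1 and Mag with 342 ± 58.0 CPM per kb. Mobp had 191 ± 39.8, Mog 127 ± 20.2, Ugt8a 78.6 ± 19.1, Ermn 58.5 ± 19.6 and Opalin 24.7 ± 5.21 CPM per kb. Among neighbours in this order, the means of Ugt8a and Ermn differed by about 1 SD of either and those of the remaining neighbours by more. In the 3 vehicle day 7 libraries alone, none of which carried ganglion transcripts, Ermn with 75.5 ± 3.95 and Ugt8a with 72.5 ± 12.8 CPM per kb stood the other way round and differed by less than either SD, so their order was not resolved. In vehicle DRG (n = 3) the order on the same scale was Mbp with 817 ± 73.3, Cnp with 282 ± 21.3, Ugt8a with 77.9 ± 9.54 and Mag with 57.6 ± 4.70 CPM per kb, so that Ugt8a and Mag changed places with their order in cord.

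At day 1 of set A the PTX cords had lower mean levels of 7 of the 8 genes than the vehicle cords, but no gene was called. Opalin was at 11.8, 35.7 and 24.96 CPM in the PTX day 1 cords, against 59.2, 43.2 and 34.5 CPM in the vehicle day 1 cords. The ranges overlapped by 1 PTX library. The log2 fold change was -0.90 ± 0.26 (SE; edgeR adjusted p = 0.165). Mog was at 59.3, 181 and 142 CPM in the PTX day 1 cords and at 233, 205 and 154 CPM in the vehicle day 1 cords, a log2 fold change of -0.61 ± 0.25 (edgeR adjusted p = 0.196). PTX replicate 1 was the lowest of the 21 cord libraries for both genes, and it was also the library with the highest Scn10a.

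Of the other genes, Mag changed by -0.48 ± 0.20, Ermn by -0.45 ± 0.28, Mobp by -0.38 ± 0.24, Mbp by -0.24 ± 0.15, Cnp by -0.14 ± 0.16 and Ugt8a by 0.24 ± 0.23 on the log2 scale, with edgeR adjusted p between 0.192 and 0.587. Thus 0 of 8 genes passed, and so did 0 of all 15815 genes (0%), while 3398 genes had an unadjusted p under 0.05 and DESeq2 called 172 genes. The median log2 fold change was -0.41 over the 8 genes and -0.04 over all genes. Over 35 other mature oligodendrocyte genes it was -0.27, with 0 called. Lists of other cell types lay on both sides, with medians of -0.42 over 11 astrocyte genes, -0.24 over 11 microglia genes, 0.48 over 13 Schwann cell genes and 0.97 over 9 ganglion neuron markers, each with 0 called. A single PTX library moved these values in either direction. Without PTX replicate 1, Opalin was at -0.58 (edgeR adjusted p = 0.6), Mog at -0.28 (adjusted p = 0.689), Mag at -0.22 (adjusted p = 0.73), Ermn at -0.11 (adjusted p = 0.922) and Mobp at -0.06 (adjusted p = 0.943). Without PTX replicate 2, edgeR called 4 of the genes lower, namely Opalin (-1.28, adjusted p = 0.0216), Mag (-0.75, adjusted p = 0.0256), Mog (-0.94, adjusted p = 0.0311) and Mobp (-0.75, adjusted p = 0.038), together with 1782 genes in all. Without vehicle replicate 3, 10 genes were called in all and none of the 8. Ganglion neuron transcripts were present in 3 of 3 PTX and 2 of 3 vehicle libraries of this comparison, and their part in these values was not tested.

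**Figure D2:**
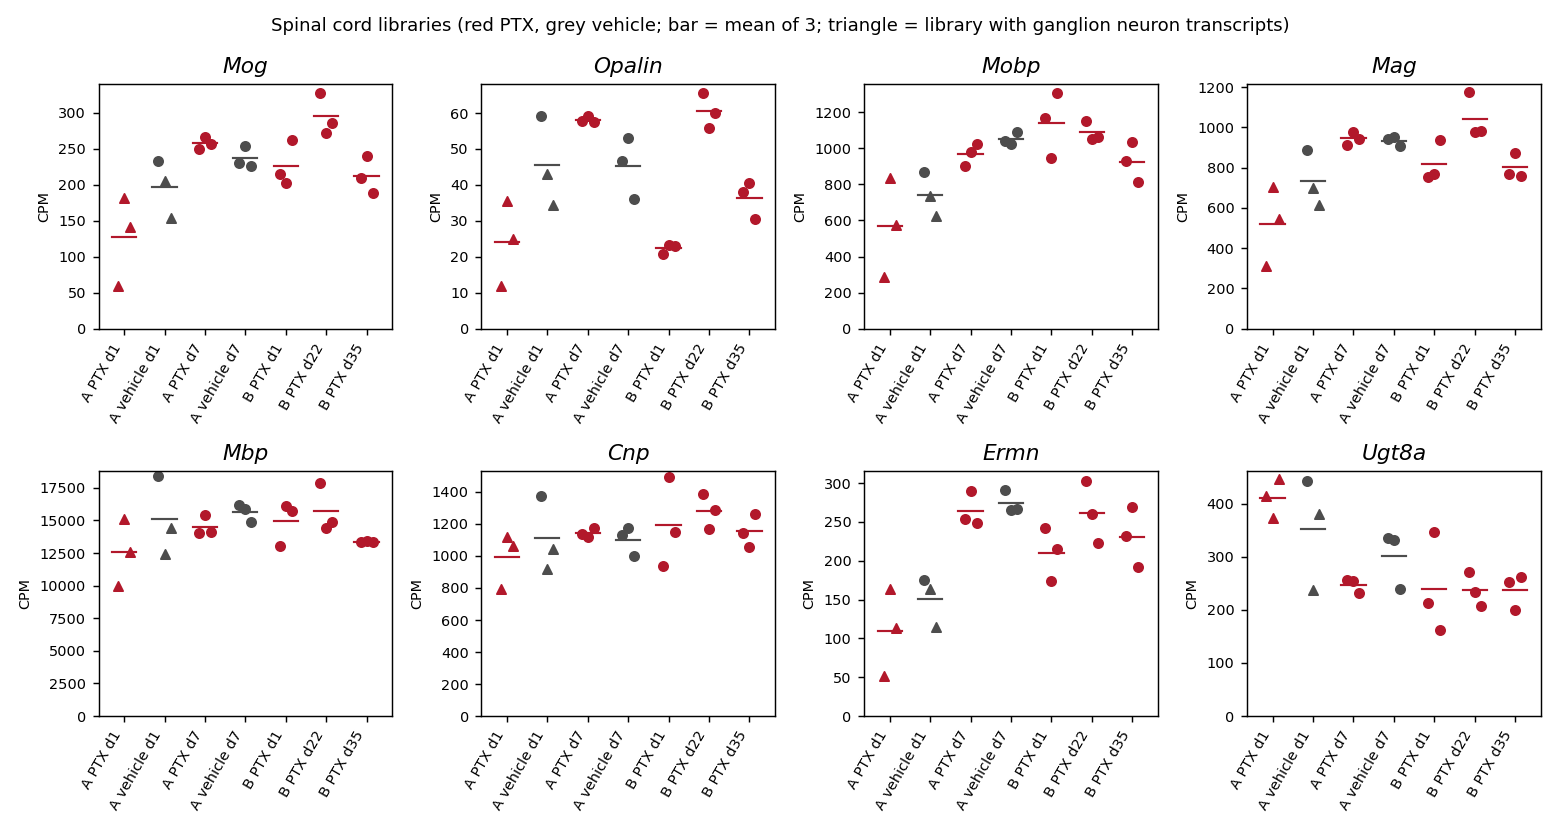
CPM of the 8 genes in the 21 spinal cord libraries, by set, treatment and day; bars are means of 3 libraries and triangles mark the 5 libraries with ganglion neuron transcripts. Opalin lies at 20.9 to 23.3 CPM in the set B PTX day 1 libraries and at 55.9 to 65.5 CPM in those of day 22. In the same libraries Mog and Mag do not overlap between the days either, while Mobp does.

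At day 7 of set A, a comparison in which no library carried ganglion transcripts, none of the 8 genes passed. Mog was at 249.1, 266 and 257 CPM in the PTX day 7 cords, against 231, 254 and 226 CPM in the vehicle day 7 cords, a log2 fold change of 0.05 ± 0.25 (SE; edgeR adjusted p = 0.948). Opalin was at 57.8, 59.1 and 57.6 CPM in the PTX day 7 cords, against 46.5, 53.1 and 36.2 CPM in the vehicle day 7 cords. The ranges of Opalin did not touch, but the log2 fold change of 0.29 ± 0.26 did not pass (edgeR adjusted p = 0.634). Mobp was at 902, 982 and 1026 CPM in the PTX cords and at 1042, 1023 and 1089 CPM in the vehicle cords, a log2 fold change of -0.18 ± 0.24 (edgeR adjusted p = 0.765).

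The lowest value of this comparison was that of Ugt8a. It was at 256, 254 and 231 CPM in the PTX day 7 cords, against 335, 331 and 240 CPM in the vehicle day 7 cords, and the ranges overlapped. Its log2 fold change was -0.36 ± 0.23 (edgeR adjusted p = 0.489). The Schwann cell sums of these libraries were 1212 to 3832 CPM in PTX cords and 1738 to 5272 CPM in vehicle cords, and their part in the Ugt8a values was not tested. Mag, Mbp, Cnp and Ermn had log2 fold changes between -0.18 and -0.01. In all, 0 of 8 genes and 0 of 15815 genes (0%) passed, 2514 genes had an unadjusted p under 0.05 and DESeq2 called 607 genes, none of them among the 8. When only these 6 libraries were fitted, 1739 genes were called and again none of the 8. Without the 5 libraries with ganglion transcripts the log2 fold changes were 0.28 for Opalin, -0.20 for Mobp and -0.37 for Ugt8a. None of the 8 genes was called under any alternative.

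Whether the PTX effect differed between day 7 and day 1 was tested as an interaction (day 7 minus day 1), and 1386 of 15815 genes (8.76%) passed but none of the 8. That count rested on single libraries. It ran over 20 (without PTX day 7 replicate 1) to 3188 (without PTX day 1 replicate 2), and of the 12 libraries only vehicle day 7 replicate 3 and vehicle day 1 replicate 3 could be left out without moving it by over 1.5 times. Opalin came closest, with a difference of 1.19 ± 0.37 on the log2 scale (SE; edgeR adjusted p = 0.0527). It passed when libraries were scaled by total counts alone (1.28, edgeR adjusted p = 0.0386) and in DESeq2 (1.17, adjusted p = 0.0188). Mog had a difference of 0.67 ± 0.36 (edgeR adjusted p = 0.217) and Ugt8a one of -0.61 ± 0.33 (edgeR adjusted p = 0.228). Without PTX day 1 replicate 2, Opalin (1.57, edgeR adjusted p = 0.00993) and Mog (0.99, adjusted p = 0.0455) were both called, and without vehicle day 1 replicate 3 Opalin was (1.34, edgeR adjusted p = 0.0397). Without PTX day 1 replicate 1 the differences were smaller, at 0.87 for Opalin (edgeR adjusted p = 0.081) and 0.33 for Mog (adjusted p = 0.369). Of 35 other mature oligodendrocyte genes, Ninj2, an adhesion molecule gene, was higher (1.52 ± 0.39, edgeR adjusted p = 0.0298), and Cntn2, a contactin of the region beside the node, was lower (-1.32 ± 0.29, edgeR adjusted p = 0.0194). The libraries with ganglion transcripts all stand on the day 1 side of this difference.

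The vehicle cords of set A differed between day 7 and day 1 without any drug. Ermn was at 291, 266 and 267 CPM in the vehicle day 7 cords, against 175, 163 and 114 CPM in the vehicle day 1 cords. The groups did not overlap, and Ermn rose by 0.93 ± 0.28 on the log2 scale (SE; edgeR adjusted p = 0.029), the only one of the 8 genes called, where 19.7% of all genes were called and 8.69% were higher. Mobp was at 1042, 1023 and 1089 CPM in the vehicle day 7 cords and at 871, 734 and 626 CPM in the vehicle day 1 cords, without overlap, a log2 difference of 0.56 ± 0.24 (edgeR adjusted p = 0.104). It passed when only these 2 groups were fitted (0.57, edgeR adjusted p = 0.0212).

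Leaving out the libraries with ganglion transcripts, which keeps 1 vehicle library of day 1 whose spread is taken to be that of the other groups, put Ermn at 0.75 (edgeR adjusted p = 0.112), and 16 genes in all were called in place of 3109, of which 2 were higher. Leaving out any 1 of 5 of the 6 libraries likewise ended the call of Ermn, with edgeR adjusted p between 0.0581 and 0.105 and log2 values of 0.77 to 0.98, and left 1229 to 1944 genes called in all. Vehicle day 1 replicate 1 was the exception. Of 35 other mature oligodendrocyte genes, 8 rose and 0 fell, led by Cntn2 (1.07 ± 0.21, edgeR adjusted p = 0.0052) and by Gm98, the older symbol of the factor gene Myrf (1.08 ± 0.27, edgeR adjusted p = 0.0141). Of 16 precursor and newly formed oligodendrocyte genes, 4 rose, and Gpr17, a receptor of newly forming oligodendrocytes, rose by 1.71 ± 0.28 (edgeR adjusted p = 0.00395). Among 15 sterol and sphingolipid synthesis genes tested, 7 fell and 1 rose, with Sqle, squalene epoxidase, at -0.49 ± 0.13 (edgeR adjusted p = 0.0148). All 9 ganglion neuron markers fell, with a median of -6.99, and the median of 13 Schwann cell genes was -1.96 with 0 called.

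In set B, Opalin was the only one of the 8 genes called between day 22 and day 1 after PTX. It was at 65.5, 55.9 and 59.99 CPM in the day 22 cords, against 20.9, 23.3 and 22.9 CPM in the day 1 cords. The groups lay far apart, and Opalin rose by 1.42 ± 0.27 on the log2 scale (SE; edgeR adjusted p = 0.0122), higher in 3 of 3 libraries. Over all genes, 172 of 15815 (1.09%) were called, of which 31 (0.196%) were higher. Without the 5 libraries with ganglion transcripts, none of which enters this contrast directly, the value was 1.44 (edgeR adjusted p = 8.9e-05) and 312 genes were called. The adjusted p was 0.0519 without day 1 replicate 2 and 0.0647 without day 22 replicate 1 (edgeR), with log2 values of 1.43 and 1.35. Without day 1 replicate 2 or any 1 of the day 22 libraries, 61 to 110 genes were called in all.

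None of the other 7 genes passed over the same days. Mog was at 327, 272 and 286 CPM in the day 22 cords and at 215, 202 and 262 CPM in the day 1 cords, a log2 difference of 0.37 ± 0.25 (edgeR adjusted p = 0.534). Its ranges did not overlap. Those of Mag did not either, at 978 to 1174 CPM in the day 22 cords and 752 to 939 CPM in the day 1 cords. Mobp was at 1154, 1053 and 1064 CPM in the day 22 cords and at 1171, 949 and 1307 CPM in the day 1 cords, a log2 difference of -0.09 ± 0.24 (edgeR adjusted p = 0.9). Mag, Ermn, Cnp, Mbp and Ugt8a had log2 differences between -0.02 and 0.33 with edgeR adjusted p of at least 0.47. Without the 5 libraries with ganglion transcripts the log2 differences were 0.39 for Mog and 0.36 for Mag. Both came nearer the threshold in that fit, but neither was called. The median log2 difference was 0.20 over the 8 genes and -0.03 over all genes.

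Of 35 other mature oligodendrocyte genes, 2 rose at day 22, namely Aspa, which encodes the aspartoacylase that frees acetate from N-acetylaspartate (0.62 ± 0.12, edgeR adjusted p = 0.0124), and Lpar1, a lysophosphatidic acid receptor gene (0.43 ± 0.10, edgeR adjusted p = 0.0385). Dhcr7, an enzyme gene of the last steps of cholesterol synthesis, rose by 0.61 ± 0.11 (edgeR adjusted p = 0.0101). Of 16 precursor genes and 13 Schwann cell genes, 0 were called, and the Schwann median was -2.09. Day 1 replicate 2 alone held a Schwann sum of 17617 CPM, against 1921 and 2241 CPM in its companions and 817 to 2088 CPM at day 22. Opalin in that replicate was 23.3 CPM, close to 20.9 and 22.9 CPM in the companions.

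At day 35 of set B, Opalin was at 37.9, 40.6 and 30.5 CPM, against the same day 1 cords. All 3 libraries were again above day 1, but the log2 difference of 0.65 ± 0.26 did not pass (edgeR adjusted p = 0.887). Without the 5 libraries with ganglion transcripts, none of which enters this contrast directly, the log2 difference of Opalin was 0.67. Opalin came nearer the threshold in that fit but was not called there either. The other 7 genes had log2 differences between -0.35, for Mobp, and 0.08, for Ermn, each with an edgeR adjusted p of 1. Thus 0 of 8 genes were called, where 14 of 15815 genes (0.0885%) were, 825 had an unadjusted p under 0.05 and DESeq2 called 54, none of the 8 among them. Without day 35 replicate 1 edgeR called 3 genes, and 7 without replicate 2. Mbp was nearly identical in the 3 day 35 libraries, at 13330, 13409 and 13312 CPM. Days 22 and 35 were compared with the same day 1 libraries.

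The place of Opalin relative to Mog was described by the reads of each gene per 100 Mog reads, a measure taken after the values had been seen and therefore given without a test. Opalin had 9.72, 11.5 and 8.76 reads per 100 Mog reads in the set B PTX day 1 libraries. The group means were 20.5 ± 0.47 in set B at day 22 and 17.1 ± 0.96 at day 35 (SD, n = 3 each). In set A the ratio was 19.0 ± 1.25 in PTX day 1 cords and 22.9 ± 2.27 in vehicle day 1 cords, and 22.6 ± 0.52 in PTX day 7 cords and 19.0 ± 2.65 in vehicle day 7 cords. No other cord library reached down to the set B day 1 values, and the lowest of the other 18 libraries had 16.0. Within set A it was 17.6 to 22.4 in the 5 libraries with ganglion transcripts and 16.0 to 25.4 in the 7 without.

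Mobp had 504 ± 37.5 reads per 100 Mog reads in set B PTX cords at day 1, 371 ± 17.1 at day 22 and 436 ± 6.59 at day 35. The group with the lowest Opalin ratio thus had the highest mean ratio of Mobp. In set A Mobp had 450 ± 39.4 in PTX day 1 cords and 379 ± 24.3 in vehicle day 1 cords. At day 7 it had 377 ± 19.7 in PTX cords and 445 ± 39.5 in vehicle cords. The treatments were only barely separated on either day and lay in opposite directions. At day 1 the lowest PTX cord had 406.47 and the highest vehicle cord 405.32. At day 7 the highest PTX cord had 399.05 and the lowest vehicle cord 403.21. Ermn had 85.3 ± 5.12 in PTX day 1 cords of set A and 76.2 ± 2.89 in vehicle day 1 cords, and 102 ± 5.97 in PTX day 7 cords and 116 ± 10.8 in vehicle day 7 cords. Within set A the days thus stood further apart than the treatments for Ermn, and the libraries with ganglion transcripts were all of day 1. In set B the Ermn ratios of days 22 and 35 overlapped those of day 1.

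**Figure D3:**
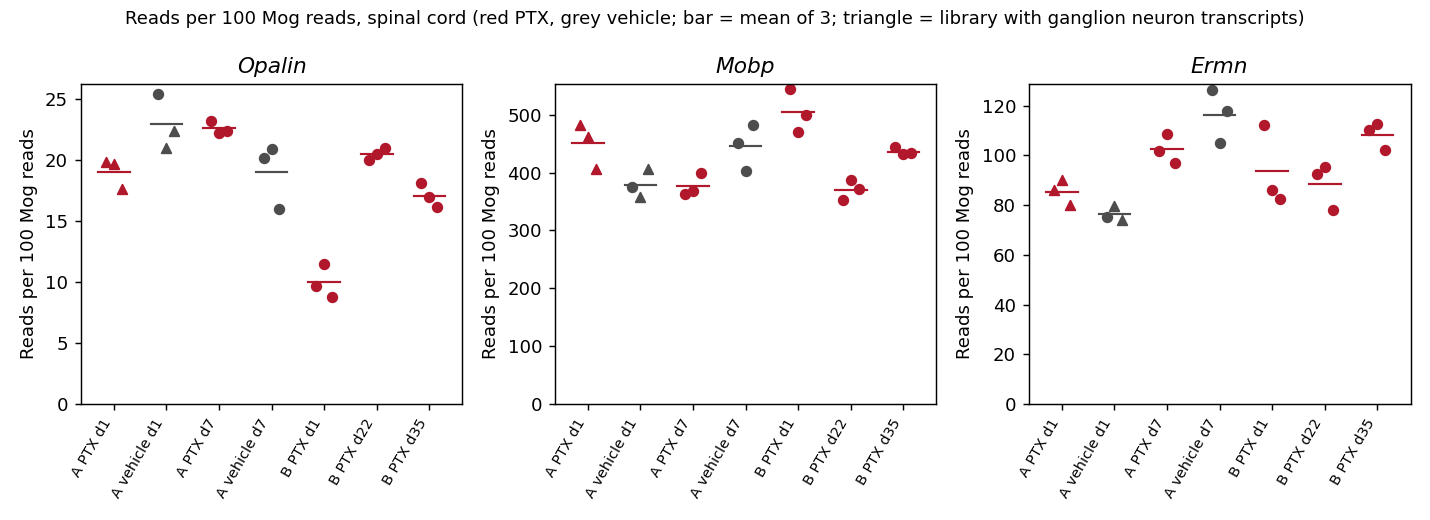
Reads of Opalin, Mobp and Ermn per 100 Mog reads in the 21 cord libraries, by set, treatment and day; bars are means of 3 libraries and triangles mark libraries with ganglion neuron transcripts. The Opalin ratio lies at 8.76 to 11.5 in the set B PTX day 1 libraries and at 16.0 or more in the 18 others.

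The PTX cords of day 1 in set B and set A share drug and day by their titles, yet 5 of the 8 genes differed. Mobp was at 1171, 949 and 1307 CPM in set B day 1 cords, against 287, 836 and 576 CPM in set A day 1 cords, and rose by 1.05 ± 0.24 on the log2 scale (SE; edgeR adjusted p = 0.00479). Ermn (0.98 ± 0.28, adjusted p = 0.0137), Mog (0.86 ± 0.25, adjusted p = 0.0166) and Mag (0.69 ± 0.20, adjusted p = 0.0139) were higher in set B as well, and Ugt8a was lower (-0.76 ± 0.24, adjusted p = 0.0209), all by edgeR. Opalin did not follow them, at -0.08 ± 0.26 (edgeR adjusted p = 0.841). Over all genes 32.9% were called, 18.5% higher and 14.4% lower.

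When only these 6 libraries were fitted, 0 of 8 genes passed (edgeR adjusted p 0.134 to 0.197 for the 5 genes), while the log2 values stayed at 1.02 for Mobp, 0.95 for Ermn, 0.83 for Mog, 0.66 for Mag and -0.80 for Ugt8a. Without set B replicate 3 only 2 of the 8 genes were called, as Mog (0.75), Mag (0.58) and Ugt8a (-0.55) lost the call, and 3341 genes were called in all. Without set A replicate 1 only 3 were, as Mag (0.43) and Ugt8a (-0.75) lost it, and 2419 genes were called in all. Of 35 other mature oligodendrocyte genes, 20 were higher in set B and 1, Gsn, was lower, and Anln (1.12 ± 0.21, edgeR adjusted p = 0.00189) had the smallest p. All 11 astrocyte genes and 8 of 16 precursor genes were higher, while 3 of 13 Schwann cell genes, 12 of 15 sterol and sphingolipid genes and 9 of 9 ganglion neuron markers were lower. Set and ganglion transcripts cannot be told apart here, because all 3 set A libraries of this group carried them.

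The way the genes varied between replicate libraries was similar for most of them. Each gene's log2 CPM was taken relative to its group mean over the 21 cord libraries, which share groups and scaling, and correlated as a description. For Mog these deviations were -0.93, 0.63 and 0.30 in set A PTX day 1 replicates 1 to 3, all with ganglion transcripts. They ran over -0.30 to 0.23 in the other cord libraries. That group therefore weighs heavily in the correlations of Mog. Mog correlated with Mag at r = 0.97, with Mobp at 0.96, with Ermn at 0.94 and with Opalin at 0.93. Set against the mean of the other 7 genes, Mag had r = 0.95, Opalin 0.94, Mog 0.90, Mobp 0.84, Mbp 0.82, Ermn 0.82 and Cnp 0.59. Ugt8a had r = -0.03 and so varied apart from the rest, though it correlated with Cnp at 0.64.

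Ugt8a was high in the cord libraries that were rich in peripheral myelin transcripts. In the 6 cord libraries with a Schwann sum over 15000 CPM, a cut not set in advance, Ugt8a was at 346 to 447 CPM. In the other 15 it was at 162 to 335 CPM. The ranges did not overlap. Mog was at 59.3 to 233 CPM in the same 6 libraries and at 188 to 327 CPM in the other 15, and these ranges overlapped. All 6 were day 1 libraries, and all but set B PTX day 1 replicate 2 were of set A. The part of peripheral myelin in the cord values of Ugt8a was not tested, and neither was that of day or set.

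**Figure D4:**
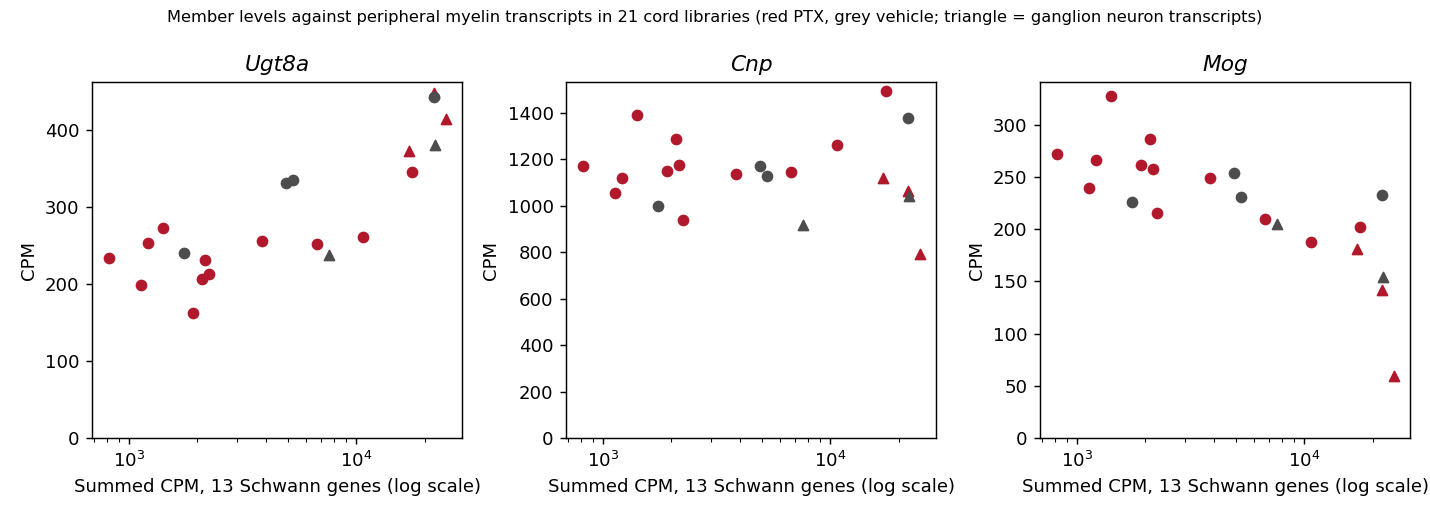
CPM of Ugt8a, Cnp and Mog in each of the 21 cord libraries against the summed CPM of 13 Schwann cell genes (log axis); red is PTX, grey is vehicle, and triangles mark the 5 libraries with ganglion neuron transcripts. Ugt8a is at 346 to 447 CPM in the 6 libraries at the right and at 162 to 335 CPM in the other 15.

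Of 10899 other genes that reached 3 on average on the log2 CPM scale in cord, 6 were most like the mean of the 8 genes in this within-group variation. They were Enpp2, which encodes autotaxin (r = 0.97), Pppde2 (0.96), Ttyh2, a tweety family gene (0.95), Sox8, a SOX factor gene of the oligodendrocyte lineage (0.95), Sox2ot, an RNA that overlaps Sox2 (0.95), and Cd38, an NAD-consuming ectoenzyme gene (0.95). The least alike were Vezt (r = -0.92), Robo2, a receptor gene of axon guidance (-0.91), and Armc8 (-0.90). These correlations over 21 libraries carry no p and share the libraries' makeup, including the wide deviations of the set A PTX day 1 libraries.

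In DRG, 5 of the 8 genes passed the filter on low counts, and Mog, Opalin and Ermn did not. None of the 4 genes shared with Schwann cells passed on any day. Ugt8a was at 404, 392 and 379 CPM in the PTX day 2 ganglia, against 279, 354 and 339 CPM in the vehicle day 2 ganglia. These PTX values lay above all vehicle values, but the log2 fold change of 0.25 ± 0.11 did not pass (SE; edgeR adjusted p = 0.642). In the PTX day 35 ganglia Ugt8a was at 290, 288 and 223 CPM, a log2 fold change of -0.29 ± 0.11 (edgeR adjusted p = 0.293), and its range overlapped that of vehicle.

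Cnp was at 551, 611 and 531 CPM in the PTX day 35 ganglia, against 704, 680 and 608 CPM in the vehicle day 2 ganglia. The ranges overlapped narrowly, and the log2 fold change was -0.24 ± 0.08 (edgeR adjusted p = 0.247). Mbp lay between -0.14 and 0.07 and Mag between -0.09 and 0.11 on the log2 scale over the 4 days, with edgeR adjusted p of at least 0.462. Mobp did not pass either, so 0 of the 5 genes were called on any day. Over all 15333 genes, the calls were 0 on day 2 (0%), 24 on day 7 (0.157%), 0 on day 22 (0%) and 32 on day 35 (0.209%). At an unadjusted p under 0.05 there were 1168, 3438, 1357 and 1987 genes on these days, and DESeq2 called 0, 877, 46 and 147 genes, none of the 5 among them. These counts turned on single libraries. On day 7, edgeR called 1175 genes without PTX replicate 3 and 0 or 1 gene without any other library of the comparison. On day 22, 31 genes were called without PTX replicate 1, and on day 35 the count was 5 to 12 without any PTX library or without vehicle replicate 1 or 2.

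**Figure D5:**
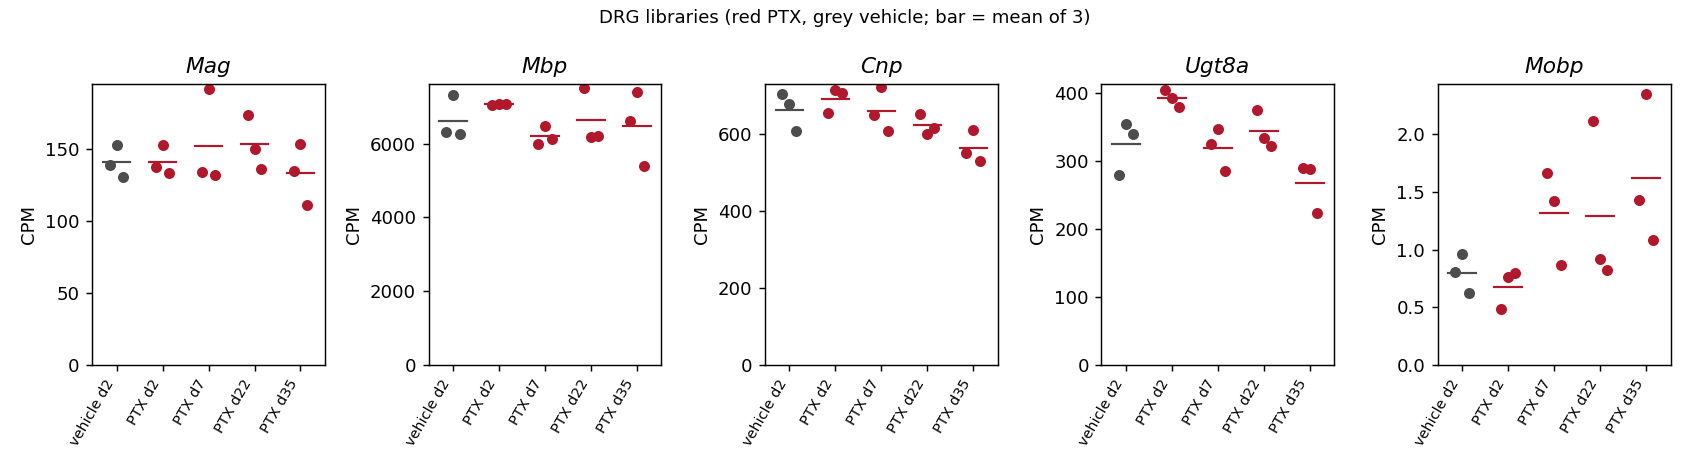
CPM of the 5 genes that could be tested in DRG, by treatment and day; points are libraries and bars are means of 3. The PTX day 35 libraries lie at 531 to 611 CPM for Cnp and at 223 to 290 CPM for Ugt8a, and Mobp stays at or under 2.35 CPM throughout.

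Mobp, the central gene with reads in every DRG library, was at 1.43, 2.35 and 1.08 CPM in the PTX day 35 ganglia, against 0.806, 0.959 and 0.619 CPM in the vehicle day 2 ganglia. The groups did not overlap, and the log2 fold change of 1.01 ± 0.40 did not pass (SE; edgeR adjusted p = 0.316). Slc32a1, the vesicular transporter gene of inhibitory neurons of the cord, had 4, 4 and 10 reads in the same PTX day 35 libraries and 0 or 1 read in the other 12 DRG libraries. Gad1, which encodes a GABA-making enzyme of inhibitory neurons, stood apart less, with 16, 19 and 17 reads in the PTX day 35 ganglia and 5 to 17 reads in the other 12. Scaled for depth its ranges overlapped, at 0.679 to 0.826 CPM in the PTX day 35 ganglia and 0.248 to 0.738 CPM in the other 12. On day 7 Mobp was at 1.66, 1.42 and 0.867 CPM with 0 reads of Slc32a1. What part cord transcripts had in these values was not tested.

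In paw, Mag, Mbp, Cnp and Ugt8a passed the filter and none was called on any day. The calls over all 15199 genes were 0 on day 2 (0%), 0 on day 7 (0%), 170 on day 22 (1.12%) and 0 on day 35 (0%), with 1119, 2091, 2835 and 807 genes at an unadjusted p under 0.05. DESeq2 called 37, 618, 1289 and 21 genes on these days and none of the 4. On day 22, edgeR called 1255 genes without PTX replicate 3, 0 without PTX replicate 2 or vehicle replicate 1 or 2, and 20 without vehicle replicate 3. On day 7 it called 70 genes without PTX replicate 1 and 6 without vehicle replicate 3. Ugt8a had the lowest value, at 11.1, 6.01 and 6.39 CPM in the PTX day 35 paws, against 11.5, 10.6 and 11.5 CPM in the vehicle day 2 paws, a log2 fold change of -0.46 ± 0.24 (SE; edgeR adjusted p = 0.919). The median of 13 Schwann cell genes was -0.44 in that comparison, with 0 called.

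The central genes left traces in the day 35 paws. Mobp was at 1.02, 0.475 and 1.02 CPM in the PTX day 35 paws, from 19, 9 and 21 reads, against 0 reads in each of the 3 vehicle day 2 paws and at most 0.144 CPM in the other paw libraries. Summed over the 4 central genes, the day 35 paws held 1.00 to 2.10 CPM and the other 12 paw libraries 0 to 0.433 CPM. Slc32a1 had 4, 4 and 5 reads in the day 35 paws and 0 reads in the other 12, while Gad1 had 7, 4 and 13 reads in the day 35 paws and 0 to 6 in the others. The day 35 tables of DRG and paw and all tables of cord set B share a format of their summary lines that the other 36 tables lack. Whether these traces came from the tissue was not tested, and the 4 genes were too low in paw for a test.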

How the data were processed

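Strand-marked libraries of polyadenylated RNA were read as 50 bp single reads, per the labels' protocols. Per the submitters' processing notes, bcl2fastq, TopHat2 and HTSeq were used with the mm9 build. Versions, and whether strand was used in counting, are not given in the sources used here, so genes that overlap others (Cnp with Dnajc7, Ermn with Galnt5) may share reads. The authors deposited raw counts for 22609 gene symbols per library. Summary lines of reads outside genes were kept out of library sizes.

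CPM of single libraries used total gene counts. Each tissue was fitted once with edgeR 4.0.16 in R 4.3.3, with filterByExpr (minimum count 10, minimum total 15), TMM scaling, robust quasi-likelihood F tests and Benjamini-Hochberg adjustment at 0.05 over all genes tested (15815 in cord, 15333 in DRG, 15199 in paw, 16391 in the joint fit of vehicle libraries). SE is the log2 fold change divided by the square root of F. Correlations used log2 CPM with a prior count of 2. Intervals of read ratios are 95% Poisson intervals and the floor is 3 reads. Alternatives were RLE scaling, total counts, no filter, a replicate block, only the groups compared, DESeq2 1.42.0 and leaving out each library; leaving out the 5 cord libraries with ganglion transcripts was added after the data had been seen. The 8 genes and the 12 other lists (160 of 161 genes matched, 3 through an older symbol) were chosen with earlier results of these data known. All 8 genes are named, and of other lists at most the 4 called genes with the smallest p. From each comparison only a selection of these is printed, and Scn10a, Slc32a1, Gad1, Gsn and the ratio to Mog were chosen after their values were seen. The cut of 15000 CPM on the Schwann sum was not set in advance either. Simulated counts with known changes were also run through the same fit. Their libraries were drawn from a common mean profile without mixed tissue, so that run says nothing on the effect of ganglion or Schwann cell transcripts. Precision is limited by 3 libraries per group.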

Additional observations from a re-analysis of the deposited data

How the results depend on the processing

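The count of the 8 genes called was within 1.5 times its main value under every alternative in 12 of 17 comparisons. In the other 5 it changed as follows. For the PTX effect of day 7 minus day 1 in set A it was 0, and 1 with total counts and 1 with DESeq2. For vehicle day 7 against vehicle day 1 it was 1, and 2 with only the groups compared and 0 without the 5 libraries with ganglion transcripts. For PTX day 1 of set B against set A it was 5, and 0 with only the groups compared. Leaving out 1 library at a time gave 0 to 4 genes for PTX day 1 in set A, 0 to 2 for the day 7 minus day 1 effect, 0 to 1 for vehicle day 7 against day 1, 0 to 1 for set B day 22 against day 1 and 2 to 6 for set B against set A. Leaving out libraries or groups lowers the degrees of freedom and changes the shared estimate of spread. The causes of these changes in count, up or down, were not tested.

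Of 1440 values of single genes under alternatives, 1409 kept their side of the threshold, 20 lost a call, 11 gained one and 0 reversed a called direction. In 56 the sign changed without a call under either setting. Replicate numbers did not pair the libraries: correlations of same-numbered libraries ran over -0.64 to 0.40, and in 0 of 14 pairs of groups did all exceed 0.1. The replicate block left the count of the 8 genes called at 0 for both PTX comparisons of set A, 1 for set B day 22 and 5 for set B against set A.

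Counts over all genes moved more. The ranges over the alternatives other than leaving out 1 library were 0 to 172 for set A PTX day 1 (main 0), 0 to 1739 for PTX day 7 (main 0), 1066 to 2270 for the day 7 minus day 1 effect (main 1386), 16 to 3861 for vehicle day 7 against day 1 (main 3109), 41 to 406 for set B day 22 (main 172), 0 to 54 for day 35 (main 14) and 435 to 5419 for set B against set A (main 5210). In DRG they were 0 to 877 on day 7 (main 24), 0 to 46 on day 22 (main 0) and 11 to 147 on day 35 (main 32), and in paw 0 to 37, 0 to 618, 0 to 1289 and 0 to 21 on days 2, 7, 22 and 35 (main 0, 0, 170 and 0). Leaving out 1 library at a time gave wider ranges for some, namely 0 to 1782 for set A PTX day 1, 20 to 3188 for the day 7 minus day 1 effect, 1229 to 3429 for vehicle day 7 against day 1, 61 to 220 for set B day 22, 3 to 17 for day 35 and 2419 to 6181 for set B against set A. In DRG they were 0 to 1175, 0 to 31 and 5 to 29 on days 7, 22 and 35, and in paw 0 to 70 on day 7 and 0 to 1255 on day 22. Depth limits Mog, Opalin, Mobp and Ermn outside cord, where few or no reads were counted.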

Other observations

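Genes outside the 8 also differed between the vehicle cords of set A at day 7 and day 1. Of 11 astrocyte genes, Aqp4, the water channel of astrocyte end feet, rose by 0.56 ± 0.19 on the log2 scale (SE; edgeR adjusted p = 0.0481), and of 11 microglia genes, 2 rose, namely Cx3cr1, the fractalkine receptor gene (0.65 ± 0.20, adjusted p = 0.0302), and Csf1r, the receptor gene of a macrophage growth factor (0.46 ± 0.15, adjusted p = 0.0378). Of 14 neuron genes, 3 rose, with Slc6a5, the neuronal glycine transporter gene, at 5.21 ± 1.52 (edgeR adjusted p = 0.0266). Over all genes 19.7% were called in this comparison and 8.69% were higher, so that 1 of 11 is close to the share over all genes. The vehicle day 1 libraries in this comparison include 2 of the 5 that carried ganglion transcripts, and without the 5 only 16 genes in all were called, of which 2 were higher.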
